A study of Mus musculus with 2 samples.

Results

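Signal transducers and activators of transcription (STATs) and the Janus kinases (JAKs) that phosphorylate them were examined in mouse CT26 cells, a colon carcinoma line of BALB/c origin, with and without decitabine (DAC). DAC is a cytosine analog that becomes part of new DNA and traps DNA methyltransferases there. The 9 genes described here were taken from a list of symbols, Stat2, Stat3, Stat5a, Stat5b, Stat6, Jak1, Jak2, Jak3 and Tyk2, each matched to its Ensembl identifier among the 24223 genes counted. Other STAT genes are not described here. RNA was sequenced from 1 culture exposed to 1 μM DAC, renewed every 24 h on 3 days and followed by 24 h in drug-free medium, and from 1 control culture handled in parallel with no DAC. The labels do not say how many culture wells went into a library. With 1 library in each group there is no replicate check, so every difference below is a difference between these 2 libraries, no p-value is given, and differences between cultures cannot be told apart from the action of the drug.

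Cytokine receptors have no kinase of their own. When a ligand brings receptor chains together, the JAKs bound to their tails phosphorylate the receptor and then the STATs that dock there, and the STATs pair up and enter the nucleus to switch on genes. STAT2 serves the interferon receptors together with IRF9, STAT3 serves IL-6 and its relatives, STAT5A and STAT5B serve prolactin, growth hormone and IL-2, and STAT6 serves IL-4 and IL-13. JAK1 and TYK2 sit on the type I interferon receptor, JAK2 on the growth hormone and erythropoietin receptors, and JAK3 on the common gamma chain used by IL-2, IL-4 and IL-15.

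The control library held 34221886 counts and that of DAC 35163420. They were scaled by TMM factors to CPM (counts in a library of 1000000), on which scale 1 CPM was 37.6 counts in DAC and 32.0 in control. Each ratio of DAC to control is followed by its exact (Clopper-Pearson) 95% counting interval, which covers counting error only and is too narrow if counts are not independent molecules. A gene was called higher or lower when it reached 1 CPM in either library, its ratio was at least 2 or at most 0.5 and its interval lay on the same side of 1. By this rule 10.8% of the 13545 genes tested were higher (1468 genes) and 5.29% were lower (716 genes), and with library totals as the scale 1889 were higher and 458 lower. Library totals moved the median log2 ratio of all genes by 0.20. Intervals alone said little, since 37.3% of the tested genes had one wholly above 1 and 40.3% one wholly below 1. Of 14 epithelial markers 12 matched the tables and 5 reached 1 CPM, of which Krt8, Krt19, Krt20 and Lgals4 were higher in DAC. Krt8 went from 5 to 4445 counts and Krt19 from 12 to 58, so both reached 1 CPM in DAC alone and had to differ. The adhesion gene Cdh1, a defining epithelial marker, had 0 control and 9 DAC counts. Of 14 leukocyte markers 6 matched, with a summed level of 16.1 CPM in control and 22.4 in DAC that was nearly all Cd68, and the pan-leukocyte gene Ptprc had 3 and 0 counts. The part of these marker differences in the results below was not tested. In bulk RNA, more cells with a transcript and more transcript per cell cannot be told apart.

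Stat2 and Stat5a were the members called higher in the DAC library, 2 of 9, and 0 of 9 were called lower. Of all tested genes, 10.8% were higher and 5.29% lower. Counts over 9 genes are too few to set the family apart from these shares. The 9 genes reached 1 CPM in both libraries, so none entered through its DAC value alone. Stretches before RefSeq starts of these genes are printed here because DAC acts through CpG methylation and because Stat5a and its neighbor and close paralog Stat5b gave unlike ratios. They are parts of the 250 bases before each RefSeq start (build GRCm38.p6) that lie outside annotated exons of the gene, written 5′ to 3′ along the gene, with each CpG in capitals. Stat2 is from chr10:128270248-128270497 on the plus strand. Stat5a has 2 RefSeq starts on the plus strand, with stretches at chr11:100859581-100859655 and chr11:100860234-100860344, and the first Stat5b start on the minus strand gives chr11:100850725-100850831. Both Stat5a stretches lie inside the gene as annotated (chr11:100859351-100885169), past its annotated start. Of the 250 bases in the 2 Stat5a windows, 175 and 139 are exon of Stat5a. In the first Stat5b window 143 bases are exon of Stat5b.
Stat2: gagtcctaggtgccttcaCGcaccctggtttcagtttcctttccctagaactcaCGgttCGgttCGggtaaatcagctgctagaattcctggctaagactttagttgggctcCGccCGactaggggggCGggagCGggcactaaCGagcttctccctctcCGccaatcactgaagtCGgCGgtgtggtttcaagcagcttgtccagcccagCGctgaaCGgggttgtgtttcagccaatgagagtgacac
Stat5a, start 1: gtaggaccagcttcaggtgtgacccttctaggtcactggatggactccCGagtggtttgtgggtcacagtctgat
Stat5a, start 2: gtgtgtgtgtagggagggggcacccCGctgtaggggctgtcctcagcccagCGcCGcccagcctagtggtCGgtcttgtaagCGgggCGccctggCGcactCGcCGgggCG
Stat5b, start 1: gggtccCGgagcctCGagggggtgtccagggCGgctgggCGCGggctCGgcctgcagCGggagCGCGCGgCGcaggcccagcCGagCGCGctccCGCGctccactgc

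These windows differ in CpG content. Over the whole 250 bases, the Stat2 window held 14 CpGs, the Stat5a windows 5 and 21, and the windows of Stat5b 40 and 5, against a median of 6 over 32851 promoter windows of the same length. In the printed stretches outside exons, the Stat5a starts held 1 and 10 CpGs and the first Stat5b start 16. Among the other members, over the whole window, Jak2 had 37 CpGs, Jak1 and Tyk2 had 19 each, Stat3 had 13, Jak3 had 8 and Stat6 had 6. The Jak1 and Jak3 windows include 59 and 87 exon bases. Windows above and below that median occurred among both the called and the uncalled members. Methylation of these windows was not analysed here. Both strands were searched for the interferon-stimulated response element written as GAAANNGAAA and for the STAT site TTCNNNGAA, which reads the same on both strands. Among the members, the Stat2 window held the response element once, as tttcagtttc (the element on the minus strand) 222 to 213 bases before the start, and no window held the STAT site. In all promoter windows the shares with a match were 2.98% and 7.02%.

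Stat2 had 3381 counts in control and 8174 in DAC, or 106 and 218 CPM, a ratio of 2.06 (1.98 to 2.15). STAT2 is the partner of IRF9 in the complex that type I interferon activates. Stat2 lies on chr10:128270559-128292849 (GRCm38) and shares none of the 50-base stretches of its longest transcript with other genes. Its ratio stood only just past 2-fold, and after centring log2 ratios on genes of like GC content it was 0.98 on the log2 scale, below the 2-fold line of 1. Stat2 went from 27.4% of the counts of the 5 STAT genes in control (26.6 to 28.2) to 42.7% in DAC (42.0 to 43.4). This share needs no scaling between libraries.

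Stat5a had 123 counts in control and 355 in DAC, or 3.84 and 9.45 CPM, a ratio of 2.46 (1.998 to 3.04). It was the member with the fewest counts and the widest interval. Stat5b, which encodes a protein of nearly the same sequence, had 1242 and 1498 counts, or 38.8 and 39.9 CPM, a ratio of 1.03 (0.953 to 1.11), an interval that holds 1. So within the pair the minor gene was higher in DAC while the major one was nearly level. Stat5a made up 9.01% of the counts of the pair in control (7.54 to 10.7) and 19.2% in DAC (17.4 to 21.03). The ratio of Stat5a was 2.39 times that of Stat5b (95% interval of the log odds 1.92 to 2.98, counting error only). Of their 50-base stretches, 10.8% in Stat5a and 11.8% in Stat5b occur in the other gene, so a part of the reads of either could be counted for the other, and the sources used here do not state how the counting treated them. After GC centring the log2 ratios were 1.03 for Stat5a and -0.07 for Stat5b.

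Stat3 and Stat6 differed little between the libraries. Stat6, which relays IL-4 and IL-13, was the STAT gene with the most counts in control, 5647 against 7029 in DAC, or 176 and 187 CPM, a ratio of 1.06 (1.02 to 1.10). Stat3, which relays IL-6, LIF and oncostatin M, had 1966 and 2086 counts, or 61.4 and 55.5 CPM, a ratio of 0.904 (0.850 to 0.962). Neither reached 2-fold, and their directions were not stable. By library totals the log2 ratio of Stat3 turned positive (0.05), and after GC centring those of Stat6 and Stat5b turned negative (-0.05 and -0.07). As shares of the 5 STAT genes, Stat6 went from 45.7% to 36.7% and Stat3 from 15.9% to 10.9% while Stat2 took up more of the sum. The ratio of Stat2 was 2.28 times that of Stat3 (2.12 to 2.45) and 1.94 times that of Stat6 (1.84 to 2.05). Summed over the 5 STAT genes the level was 386 CPM in control and 509 CPM in DAC, a ratio of 1.32 (1.29 to 1.35).

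**Figure D1:**
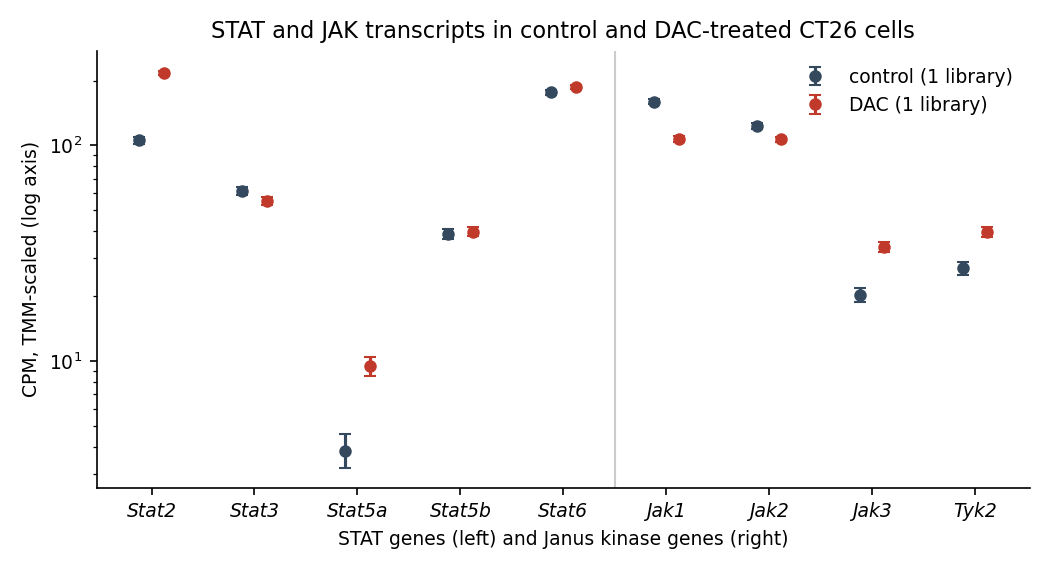
CPM of each STAT and Janus kinase gene (log axis) in the control and DAC libraries, 1 library each, with exact 95% Poisson counting intervals as bars. Stat2 and Stat5a stand apart between the libraries at 106 and 218 and at 3.84 and 9.45 CPM, and Jak1 lies lower in DAC, 159 against 107 CPM.

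No Janus kinase reached 2-fold, and the 4 genes did not move alike. Jak1, the kinase shared by the interferon, IL-6 and IL-4 receptors, had 5100 counts in control and 4020 in DAC, or 159 and 107 CPM, a ratio of 0.672 (0.644 to 0.700). Jak2 had 3930 and 4003 counts, or 123 and 107 CPM, a ratio of 0.868 (0.830 to 0.907). These are the kinases with the most counts, and both stood below the control level on the TMM scale. Jak3, known mainly from lymphoid cells, had 648 and 1274 counts, or 20.2 and 33.9 CPM, a ratio of 1.68 (1.52 to 1.84). Tyk2, the kinase on the IFNAR1, IL-12 and IL-10 receptor chains, had 863 and 1489 counts, or 26.9 and 39.6 CPM, a ratio of 1.47 (1.35 to 1.60). On the TMM scale the less abundant pair of kinases was thus above the control level and the more abundant pair below it. Jak2 was nearly level by library totals and after GC centring, with a log2 ratio of -0.01 in each. Jak3 was the only kinase past 1.5-fold, as were 19.3% of all tested genes.

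These unlike ratios changed the makeup of the kinase pool. Jak1 went from 48.4% of the counts of the 4 kinase genes (47.4 to 49.3) to 37.3% (36.4 to 38.2), whereas Jak2 was at 37.3% and 37.1%. Jak3 went from 6.15% to 11.8% and Tyk2 from 8.19% to 13.8%. The ratio of Jak3 was 2.49 times that of Jak1 (2.25 to 2.77), the ratio of Tyk2 was 2.19 times that of Jak1 (1.99 to 2.40), and Jak3 and Tyk2 were near each other (1.14 times, 1.00 to 1.29). On the TMM scale the summed level of the 4 genes was 329 CPM in control and 287 CPM in DAC, a ratio of 0.872 (0.849 to 0.896). The summed counts were 10541 in control and 10786 in DAC, out of library totals of 34221886 and 35163420. How far this ratio lies from 1 therefore depends on the scaling.

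**Figure D2:**
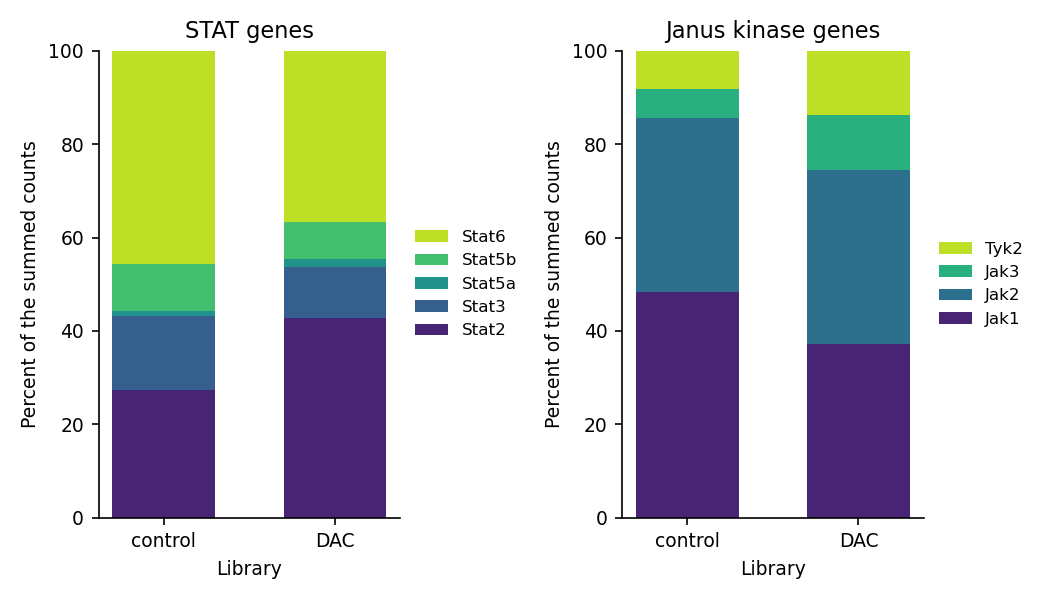
Percent of the summed counts (y axis) taken by each gene within the 5 STAT genes (left) and the 4 Janus kinase genes (right) in the control and DAC libraries, 1 library each. Stat2 widens from 27.4% to 42.7%, and Jak1 narrows from 48.4% to 37.3% while Jak3 and Tyk2 widen.

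GC content moved with these ratios. The longest transcripts of Jak3, Stat5a and Tyk2 have the highest GC content of the 9 (61.0%, 57.9% and 57.0%), and those of Jak2 and Jak1 the lowest (44.3% and 47.6%). Over all tested genes in 20 bins of GC content, the median log2 ratio went from -0.37 in the lowest bin to 0.41 in the highest. After centring on these bins the log2 ratio of Jak3 was 0.34 in place of 0.74, that of Tyk2 0.29 in place of 0.56, that of Jak1 -0.47 in place of -0.57 and that of Jak2 -0.01 in place of -0.20. The order of the 4 kinases was the same, with a smaller spread. The part of GC content in these ratios was not tested beyond this centring. Stat5a was then the only member called higher.

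**Figure D3:**
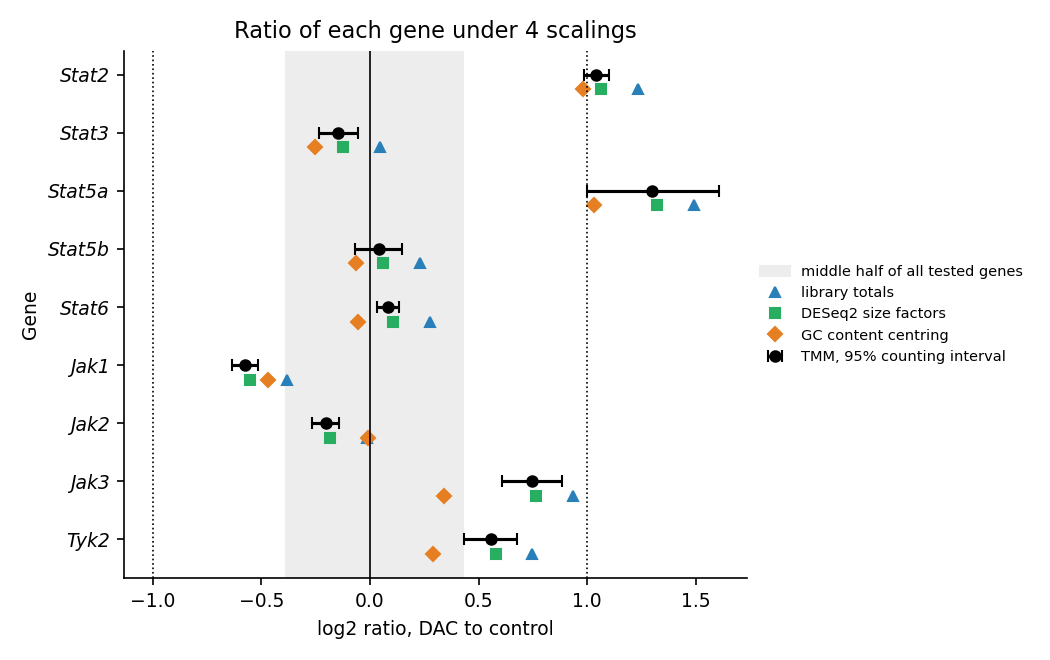
Ratio (x axis, log2, DAC over control) for each member with TMM scaling and its 95% counting interval (black), and with library totals (blue), DESeq2 size factors (green) or GC centring (orange). The gray band is the interquartile range of all tested genes (-0.39 to 0.43), dotted lines mark 2-fold, and Stat2 falls to 0.98 with GC centring.

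Per length, Stat6 was the most abundant of the 9 in both libraries and Stat5a the least. In CPM per kilobase of annotated exon, the control levels were 40.1 for Stat6, 24.4 for Jak2, 22.0 for Jak1, 17.8 for Stat2, 7.002 for Stat5b, 6.44 for Stat3, 3.93 for Tyk2, 3.78 for Jak3 and 0.538 for Stat5a. In DAC they were 42.5 for Stat6, 36.7 for Stat2, 21.2 for Jak2, 14.8 for Jak1, 7.20 for Stat5b, 6.33 for Jak3, 5.83 for Stat3, 5.77 for Tyk2 and 1.32 for Stat5a. Stat2 thus had rank 4 in control and rank 2 in DAC. Neighbors in this order whose counting intervals overlap, and which are therefore not told apart, are Stat5b with Stat3 and Tyk2 with Jak3 in control, and Jak3 with Stat3 and Stat3 with Tyk2 in DAC. With the longest transcript as the length, Jak1 stood above Jak2 in both libraries, Stat3 above Stat5b in both, and Jak3 above Stat5b in DAC, so these positions rest on the choice of length.

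The genes around the STAT loci did not share 1 direction. Stat5b (chr11:100780731-100850724, minus strand), Stat5a (chr11:100859351-100885169, plus strand) and Stat3 (chr11:100885098-100939540, minus strand) follow each other on chromosome 11, and Stat5b begins 8.63 kb from the start of Stat5a. The exons of Stat5a and Stat3 overlap by 72 bases at their ends on opposite strands, 1.01% of the Stat5a exons, and the sources used here do not state whether the counting used strand. The ratio of Stat5a was 2.46 between neighbors at 1.03 and 0.904. Further out, Cavin1, a gene for a coat protein of caveolae, had a ratio of 1.16 (1.13 to 1.19), Ghdc 1.10 (0.984 to 1.22) and Atp6v0a1, a subunit of the proton pump of acidic organelles, 0.411 (0.380 to 0.443), called lower.

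On chromosome 10, the nearest counted gene downstream of Stat2 is Il23a, which encodes the p19 chain of IL-23 and lies 3.29 kb from the end of Stat2 on the opposite strand. For Il23a, 17 counts in control and 99 in DAC gave a ratio of 4.96 (2.95 to 8.86). Next to it, Pan2, a subunit of a poly(A) nuclease, had a ratio of 1.17 (1.09 to 1.26). Upstream, Apof and Apon had at most 8 counts in a library. Stat6 lies elsewhere on the same chromosome (chr10:127642986-127660957), between Lrp1, an endocytic receptor gene with a ratio of 0.804 (0.792 to 0.817), and Nab2, a repressor of EGR factors, at 0.934 (0.902 to 0.967). The exons of Stat6 and Nab2 overlap by 40 bases.

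**Figure D4:**
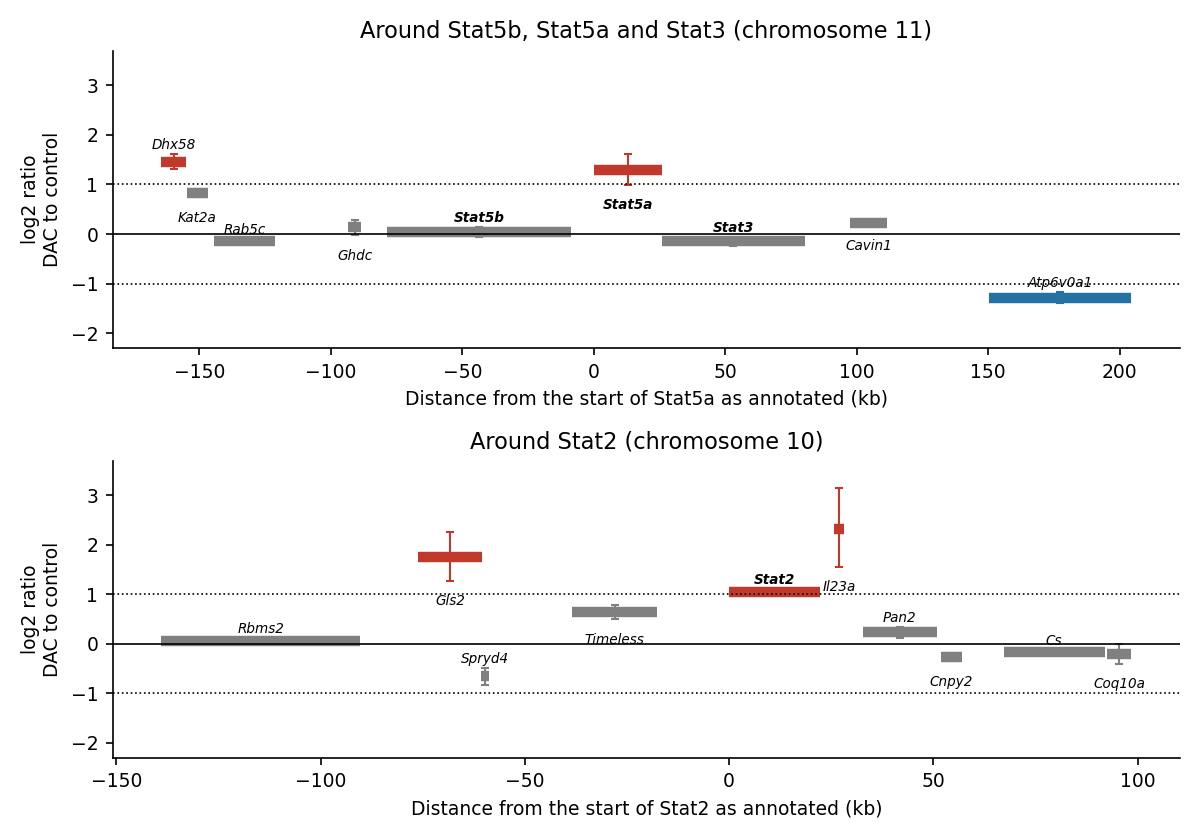
Ratio (y axis, log2, DAC over control) for genes with at least 50 counts over both libraries, drawn as bars along their distance in kb from the annotated start of Stat5a (top) or Stat2 (bottom), with 95% counting intervals. Red genes are called higher and blue ones lower, and Stat5a at 1.298 stands between Stat5b at 0.04 and Stat3 at -0.15.

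The remaining kinase genes lie apart from each other. Jak1 is on chr4:101152367-101265282, Jak2 on chr19:29251828-29313080, Jak3 on chr8:71676296-71690575 and Tyk2 on chr9:21104068-21131243. Of the Jak3 exon bases, 404 (7.55%) are shared with Insl3 on the same strand, which had 11 control and 14 DAC counts, few beside those of Jak3. Of the Tyk2 exon bases, 554 (8.07%) overlap an antisense gene, 1700084C06Rik, that has no count here. Apart from the STAT5 pair, at most 1.03% of the 50-base stretches of a member occur in other genes, and none do in Stat2, Stat6, Jak1, Jak2 and Tyk2.

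Around the members, 123 further genes of the pathway (ligands, receptors, inhibitors, partners and IRF factors) were listed and 97 matched the tables. Of the 68 that reached 1 CPM, 16 were higher (23.5%) and 1 was lower (1.47%), with a median log2 ratio of 0.13 beside -0.02 over all tested genes. Of all tested genes, 10.8% were higher and 5.29% lower. Among the 16 higher genes, Osm and Il15ra, with 0 control counts, and Il23a and Ptk2b reached 1 CPM in DAC alone and so had to differ. Among receptors, 4 of 17 were higher (23.5%) and 0 lower. Il4ra, the IL-4 receptor chain that docks STAT6, went from 250 counts to 1108, with a ratio of 3.78 (3.29 to 4.35). Il2rg, the common gamma chain that binds JAK3, went from 308 counts to 889, with a ratio of 2.46 (2.16 to 2.81). Il12rb1, a chain that binds TYK2, went from 61 to 254, with a ratio of 3.55 (2.67 to 4.77). Il15ra had 0 and 41 counts, a ratio of 11.6 with the 0 set to 3 counts, and 9.05 at the lower end of its counting interval. The chains of the interferon receptors stayed under 2-fold. Ifnar1, which binds TYK2, had a ratio of 0.821 (0.767 to 0.878), and Ifnar2, which binds JAK1 and STAT2, 1.22 (1.10 to 1.34). The interferon gamma receptor genes Ifngr1 and Ifngr2 had ratios of 1.49 (1.35 to 1.65) and 1.67 (1.51 to 1.86). Il6st, the signal chain of the IL-6 family and the most abundant receptor of the list per length, had 0.968 (0.932 to 1.00).

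Of the ligand genes, 24 of 38 matched and 12 reached 1 CPM. Of these, 3 were higher (25%) and 1 lower (8.33%), beside 10.8% and 5.29% of all tested genes. Besides Il23a the higher ones were Il15 (53 and 126 counts, a ratio of 2.03, 1.46 to 2.85) and Osm, oncostatin M, with 0 and 54 counts. The ratio of Osm was 15.3 with the 0 set to 3 counts, and 12.1 at the lower end of its interval. The lower one was Il6, a main ligand upstream of STAT3, with 56 and 26 counts (a ratio of 0.396, 0.238 to 0.641). This call was lost after GC centring and at a minimum of 5 CPM. Lif, the most abundant ligand per length, had a ratio of 1.01 (0.953 to 1.08). Ifnb1, the interferon ligand of this list that matched the tables, had 5 and 17 counts, below the CPM minimum, so no difference was assessed for it at this depth.

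Of the inhibitors of the pathway, 3 of 20 were higher (15%) and 0 lower, beside 10.8% and 5.29% of all tested genes. Socs1, which blocks JAK activity, had 98 and 282 counts (a ratio of 2.45, 1.94 to 3.12), Ptpn6, the phosphatase SHP-1, 268 and 651 (2.07, 1.79 to 2.40) and Pdlim2, a ubiquitin ligase for STATs, 385 and 908 (2.01, 1.78 to 2.27). Socs3, the inhibitor induced by STAT3, had a ratio of 1.04 (0.944 to 1.14), and Cish, induced by STAT5, had 30 and 70 counts and a ratio of 1.99 (1.28 to 3.16), just under the rule. Usp18, an inhibitor of interferon receptor signaling and the most abundant of the list per length, had 1.52 (1.46 to 1.57). Among the partners and adaptors, 2 of 13 were higher (15.4%), Nmi, a STAT-binding protein, at 2.91 (2.57 to 3.29) and the kinase gene Ptk2b at 5.59 (3.29 to 10.1). Irf9, the DNA-binding partner of STAT2, was not higher along with it, with 3068 and 3283 counts and a ratio of 0.912 (0.868 to 0.958), which by library totals comes out above 1.

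Of the IRF factors, 4 of 7 were higher (57.1%), beside 10.8% of all tested genes. Irf7, an amplifier of interferon responses, had 1930 and 6856 counts (a ratio of 3.03, 2.88 to 3.19), Irf1 676 and 2004 (2.53, 2.31 to 2.76), and Irf8 and Irf5 stood at 4.70 (3.51 to 6.41) and 3.36 (2.33 to 4.96).

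The listed target genes of each STAT gave different pictures. Of all tested genes, 10.8% were higher and 5.29% lower. Of 37 type I interferon targets, which need STAT2, 16 were higher (43.2%) and 1, Ifi27, was lower, with a median log2 ratio of 0.77. Zbp1, a sensor of Z-form nucleic acids, went from 277 counts to 3455, with a ratio of 10.6 (9.40 to 12.1). Bst2, which tethers budding viruses and is the most abundant of them per length, went from 5829 to 21982, with a ratio of 3.21 (3.12 to 3.31). Of 22 STAT3 targets 3 were higher and 3 lower (13.6% each), with a median of -0.33. Among the higher ones Bcl3 and Icam1 reached 1 CPM in DAC alone. Among the lower ones Il6 and Lbp reached it in control alone. Lcn2, lipocalin 2, went from 1224 to 172 counts (a ratio of 0.120, 0.101 to 0.141), whereas Bcl3, a coactivator of NF-κB, went from 23 to 205 (7.60, 4.92 to 12.3) and Saa3, serum amyloid A3, from 109 to 497 (3.89, 3.15 to 4.83). The STAT3 targets Myc, Hif1a and Vegfa had ratios of 0.635 (0.611 to 0.661), 0.632 (0.612 to 0.654) and 0.554 (0.540 to 0.569). They did not pass the rule. Of 13 STAT5 targets 2 were higher (15.4%), Osm and Igfals, both at 0 control counts, with a median of 0.05. Ccnd1, cyclin D1, the most abundant STAT5 target per length, had a ratio of 0.934 (0.918 to 0.949). Of 19 STAT6 targets listed, 11 matched the tables and 6 reached 1 CPM. Of these, 3 were higher (50%), Il4ra, Socs1 and Mrc1, with a median of 1.14. Over the 11 matched genes the median was 0.16. Mrc1, with 13 and 52 counts, reached 1 CPM in DAC alone and so had to differ. These lists overlap, and they record which genes a STAT is known to drive, not that it drove them here.

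**Figure D5:**
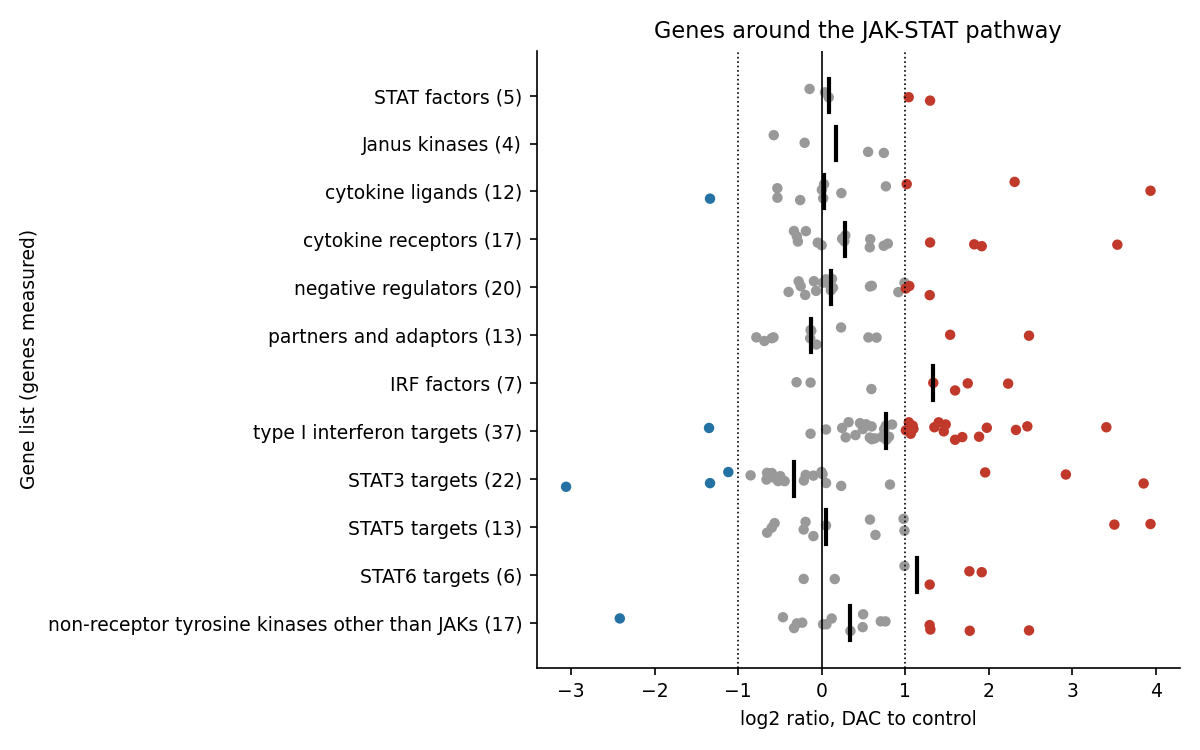
Ratio (x axis, log2, DAC over control) for each gene that reached 1 CPM in lists around the pathway, with the number of genes in parentheses and points spread vertically for view. Red points are called higher, blue ones lower, black bars are list medians (0.77 for the type I interferon targets, -0.33 for the STAT3 targets), and dotted lines mark 2-fold.

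With 2 libraries the likeness of a gene to a member comes down to its ratio. Among 2507 protein-coding genes with a mean CPM within 2-fold of that of Stat2, the nearest log2 ratios were those of Prr13 (1.07), Sfr1 (1.02) and Cd9 (1.07), beside 1.04 for Stat2. Among 1673 such genes for Stat5a, they were Socs1 (1.29), Abcb6 (1.31) and Ufsp1 (1.31), beside 1.298 for Stat5a.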

How the data were processed

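RNA-seq of 2 CT26 libraries was used, 1 per group. The authors deposited whole-number counts for each of 24223 Ensembl genes, not normalized. The notes of the submitters list mm10, DESeq, Cufflinks, StringTie 1.3.1c, STAR 2.5.3a, FastQC and Trim Galore, whereas the methods of the study describe poly-A selection and FPKM from CASAVA with TopHat and Bowtie. The counter, its treatment of shared reads and its use of strand are not given in the sources used here.

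Identifiers were matched to GENCODE M21 (GRCm38, the assembly of mm10), with 24122 found and 101 not. TMM, upper-quartile (edgeR 4.0.16) and DESeq2 1.42.0 factors were computed in R 4.3.3, the rest in Python 3.11.15 with scipy 1.17.1. A 0 was set to 3 counts for ratios. GC content is that of the longest transcript, and promoter windows are RefSeq's, for which 9 of 9 members matched. The calling rule was run on simulated libraries with counting error alone. These hold no differences between cultures, so the run does not bear on such differences. Named genes are the 9 members, up to 3 called genes a direction and the most abundant gene of each list, 2 neighbors a side of each STAT gene, and the 3 genes nearest in ratio. Not every gene so named is described, and Cdh1, Ptprc, Il2rg, Irf1, Lgals4, Fes, Myc, Hif1a, Vegfa, Socs3, Cish, Ifnb1 and the interferon receptor genes were named outside this rule, after their values were seen. The members and lists were chosen with earlier results of these data known. Bisulfite sequencing and the PDX tumors that the methods of the study also describe were not analysed here. Some genes of the lists are not reported here.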

Additional observations from a re-analysis of the deposited data

How the results depend on the processing

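Stat2 and Stat5a were both called higher, and 0 of 9 members lower, by library totals, DESeq2 or upper-quartile factors, without a CPM minimum, at a minimum of 5 CPM, and with intervals from counts divided by 3. A fold of 1.5 added Jak3. After GC centring 1 member, Stat5a, was higher. Of 72 member ratios under the 8 alternatives, 57 stayed within their counting interval, 8 left it by library totals and 7 after GC centring, and no called ratio changed sign. The pathway genes called lower numbered 2 without a CPM minimum, 4 at a fold of 1.5, 0 at 5 CPM and 0 after GC centring, where Il6 lost its call, and those called higher 10 at 5 CPM. Over all genes, 458 were lower by library totals, 2672 were higher and 1239 lower without a minimum, 684 and 450 at 5 CPM, and 2612 and 2059 at a fold of 1.5. Fewer or more genes tested, or a lower fold, make up these last differences by construction. No paired analysis was possible because each group holds 1 library, and for the same reason no library could be left out. Depth limits Stat5a most, with 123 control counts, and leaves Ifnb1 below the CPM minimum.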

Other observations

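The wider class of cytoplasmic tyrosine kinases was also looked at beside the JAKs. Of 28 such genes other than the JAKs, 25 matched the tables and 17 reached 1 CPM, with a median log2 ratio of 0.34. In the DAC library 4 were higher (23.5%) and 1 lower (5.88%), beside 10.8% and 5.29% of all tested genes. The higher ones were Csk, the kinase that restrains the SRC family, which went from 978 counts to 2830 (2.47, 2.29 to 2.65), Fes at 2.45 (2.22 to 2.71), the T cell kinase gene Lck with 81 and 325 counts (3.42, 2.67 to 4.42), and Ptk2b. Tnk2, the most abundant of the class per length, had a ratio of 1.41 (1.37 to 1.46), Src had 1.27 (1.21 to 1.33), and Fyn and Yes1 had 0.725 (0.665 to 0.791) and 0.795 (0.746 to 0.847).

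Genes often used as references were themselves spread out. Of 12, Pgk1 was at 0.519 (0.512 to 0.526) and Hprt at 0.574 (0.550 to 0.599), Gapdh at 0.997 (0.984 to 1.01) and Ppia at 1.796 (1.76 to 1.83), and Gusb, at 2.37 (2.17 to 2.60), was called higher. The ratios of 8 of the 9 members lie within that span, and that of Stat5a lies above it. Of the 3 DNA methyltransferase genes, none called, Dnmt1 had a ratio of 0.994 (0.964 to 1.03), Dnmt3a 1.05 (0.959 to 1.15) and Dnmt3b, with 47 and 107 counts, 1.94 (1.36 to 2.80). Src, Fyn, Yes1, Pgk1, Hprt, Gapdh, Ppia, Dnmt3a and Dnmt3b were named after their values were seen.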
